A study of Mus musculus with 8 samples.

Results

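The collagen genes were followed through 4 histone marks in tumors of 2 lines of Lewis lung carcinoma, a mouse lung tumor line. Members were the protein-coding genes of the GENCODE vM1 annotation of mm9 whose symbols have the form Col, a number, a and a number. Of 22367 protein-coding genes, counted on the autosomes and the sex chromosomes, 43 were members. They were set apart as 11 fibrillar collagens, 6 basement membrane collagens (type IV) and 26 other collagens. LLC-NR is the line sensitive to VEGF-Trap, a decoy receptor that binds VEGF, and LLC-R is the line made resistant by 5 rounds of selection in mice under VEGF-Trap. Both lines were grown as subcutaneous isografts in female C57BL/6J mice bought at 6 to 8 weeks of age, and tumors were taken at about 500 mm3. The methods describe no drug given to these mice while the tumors grew, LLC-R is a single selected line, and the number of tumors behind a library is not given in the sources used here. The labels give the tissue as lung, although the isografts grew under the skin of the flank. Chromatin of whole tumors was digested with micrococcal nuclease and precipitated with antibodies to H3K4me3, H3K9ac, H3K27me3 and H3K36me3. Each mark was sequenced in 1 library of either line, which made 8 libraries, so no difference between lines has a replicate check and no p-value is given for one.

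Collagens are secreted proteins built of 3 chains wound into a triple helix. Fibrillar collagens form the fibers of skin, tendon, bone and cartilage, type IV collagens form the mesh of basement membranes under epithelium and around vessels, and the other classes decorate fibers, anchor membranes or span the cell surface. In tumors fibroblasts are a main source of fibrillar collagen, and endothelial and epithelial cells of type IV collagen. H3K4me3 and H3K9ac are found at promoters of transcribed genes, H3K36me3 over the bodies of transcribed genes, and H3K27me3, laid down by Polycomb, at silent genes. Promoters that carry H3K4me3 or H3K9ac together with H3K27me3 are called bivalent. In whole tumors a mark carried by fewer cells and less of a mark per cell cannot be told apart.

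The files list peaks only by position. Every peak was as wide as the DNA wrapped around a nucleosome, and no peak overlapped another of its library. The libraries held 5660458 to 9101721 peaks, which covered 31.3% to 50.4% of the genome. LLC-R had more H3K27me3 and H3K36me3 peaks than LLC-NR, fewer H3K9ac peaks and about as many H3K4me3 peaks. By the study's read totals, LLC-R also had more uniquely mapped reads for H3K27me3 and H3K36me3 and fewer for H3K9ac and H3K4me3. The part of depth in the numbers of peaks was not tested. No promoter held more than 9 peaks of H3K4me3, H3K9ac or H3K27me3. A number of peaks therefore says how much of a region was called, and not how strong the mark was. For comparisons of the lines each number was divided by the mean over all genes of the same library (the relative level), and log2 ratios of LLC-R to LLC-NR were taken from relative levels with a pseudocount of 0.1. A promoter was called different at 1.5-fold and a gene body at a log2 ratio of 0.32 in either direction. Where a pair of values is given without a line, LLC-NR comes first.

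The average profile around the transcription start site (TSS) showed how shallow the contrast of these numbers was. Over all protein-coding genes in LLC-NR, H3K4me3 was at 2.71 peaks per kb in the bin that starts at -3000 bp from the TSS and at 3.48 peaks per kb in the bin that starts at 250 bp. The mean of the collagen genes at the second position was 3.26 peaks per kb in LLC-NR and 3.72 peaks per kb in LLC-R, where all genes were at 3.34. In the next bin, which starts at 500 bp, the collagen genes went the other way, at 3.72 in LLC-NR and 2.98 in LLC-R. For H3K27me3 the collagen genes were at 4.19 peaks per kb in the bin from 250 bp in LLC-NR against 3.07 for all genes. In LLC-R they were at 4.56 against 3.62.

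**Figure D1:**
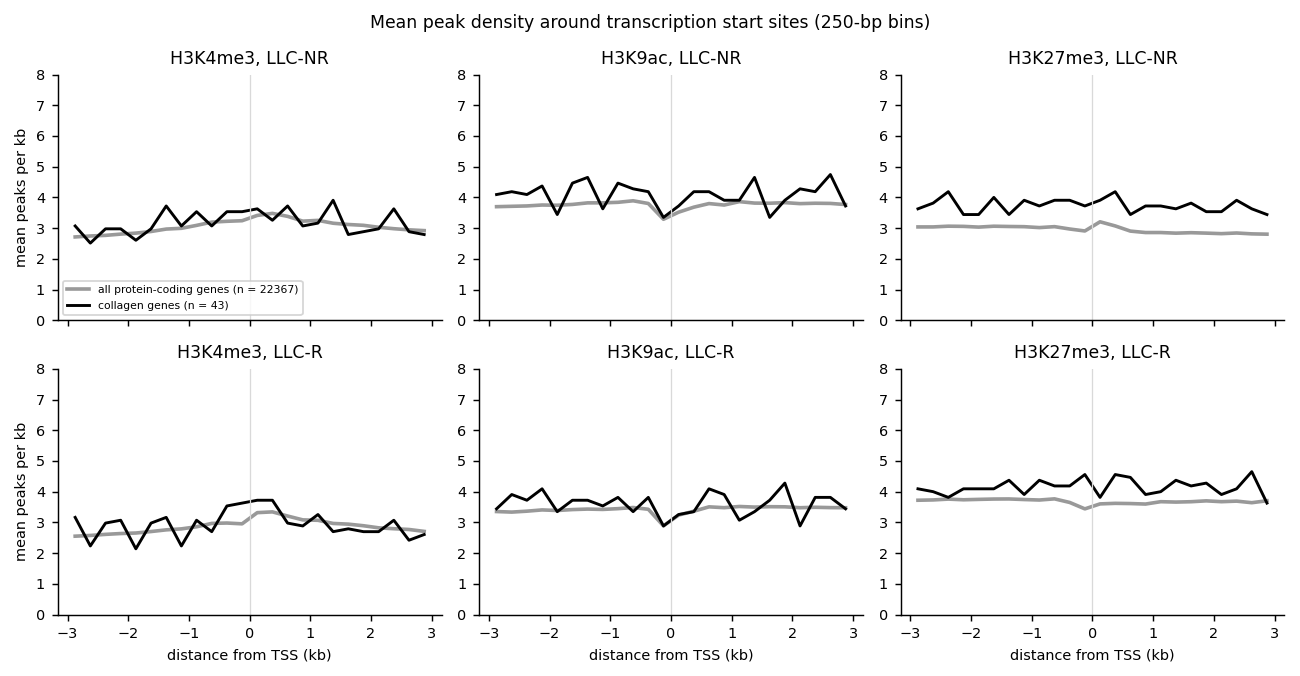
Mean number of peaks per kb (vertical axis) against the distance from the TSS in kb (horizontal axis), in 250-bp bins, for H3K4me3, H3K9ac and H3K27me3 (columns) in LLC-NR and LLC-R (rows). The grey line is the mean of all 22367 protein-coding genes and the black line the mean of the 43 collagen genes; the black line runs above the grey one for H3K27me3 in most bins, and close to it for H3K4me3.

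The promoters differ widely in CpG content, which the study used to sort promoters into CpG-rich (HCP), intermediate (ICP) and CpG-poor (LCP) classes. Of the collagen promoters 20 were HCPs, 17 ICPs and 6 LCPs, and the median promoter held 39 CpGs against 47 for all promoters. The 150 bases upstream of the TSS are printed for 5 genes that recur below, 5′ to 3′ on the strand of the gene, with CpG dinucleotides in capitals. Col3a1 and Col10a1 are shown for the highest log2 ratios of H3K27me3, Col27a1 and Col5a1 for the highest and lowest log2 ratio of H3K9ac, and Col1a1 for the densest H3K27me3 over the body in LLC-NR.
Col3a1 (chr1:45368233-45368382, + strand, mm9): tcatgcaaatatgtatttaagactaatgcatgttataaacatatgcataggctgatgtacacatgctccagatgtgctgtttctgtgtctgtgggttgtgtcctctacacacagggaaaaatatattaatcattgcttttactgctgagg
Col10a1 (chr10:34109637-34109786, + strand, mm9): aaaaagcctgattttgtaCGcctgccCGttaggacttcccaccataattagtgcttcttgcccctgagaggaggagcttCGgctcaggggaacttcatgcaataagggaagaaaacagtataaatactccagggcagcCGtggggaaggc
Col1a1 (chr11:94797388-94797537, + strand, mm9): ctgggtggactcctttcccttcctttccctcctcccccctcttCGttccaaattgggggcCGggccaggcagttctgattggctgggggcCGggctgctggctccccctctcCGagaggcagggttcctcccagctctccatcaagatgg
Col5a1 (chr2:27741795-27741944, + strand, mm9): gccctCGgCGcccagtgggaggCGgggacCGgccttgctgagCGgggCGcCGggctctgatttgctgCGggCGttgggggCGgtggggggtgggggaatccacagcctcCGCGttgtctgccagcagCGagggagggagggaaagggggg
Col27a1 (chr4:62874888-62875037, + strand, mm9): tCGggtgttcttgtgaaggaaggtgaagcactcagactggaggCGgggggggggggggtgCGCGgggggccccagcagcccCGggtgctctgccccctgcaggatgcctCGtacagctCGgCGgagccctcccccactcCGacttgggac

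These windows held 0 CpGs in Col3a1, 4 in Col10a1, 4 in Col1a1, 13 in Col5a1 and 9 in Col27a1. Over the 150 bases upstream of all collagen TSSs, the letters CCAAT, searched on both strands, were found in 10 genes (23.3%) against 25.9% of all promoters. The letters GGGCGG, on both strands, were found in 21 genes (48.8%) against 35.7% of all promoters. The letters TATAA, searched on the strand of the gene between 40 and 20 bases upstream of the TSS, were found in 4 genes (9.3%) against 3.74% of all promoters.

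The collagen promoters carried H3K27me3 more often than promoters in general, and most of them were bivalent by their numbers of peaks. In LLC-NR they held 5.84 H3K27me3 peaks on average (SD 1.63 across the 43 genes) against 4.56 for all promoters, and in LLC-R 6.42 (SD 0.98) against 5.46. Their H3K4me3 was close to the average, at 5.14 peaks (SD 1.21) against 4.91 in LLC-NR and 5.09 against 4.61 in LLC-R. H3K9ac was at 6.05 peaks (SD 1.38) against 5.51 in LLC-NR and at 5.12 (SD 0.98) against 4.97 in LLC-R. Within HCPs alone the collagen promoters held 5.4 H3K4me3 peaks against 6.06 for all HCPs, and 6.1 H3K27me3 peaks against 4.68, in LLC-NR. In LLC-R the same values were 5.3 against 5.61 for H3K4me3 and 6.55 against 5.59 for H3K27me3.

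Promoters were sorted into the 4 states of the study, with a mark taken as present when its number of peaks reached the mean of all promoters of the library. The methods of the study ask for 2 times the mean for H3K4me3 and H3K9ac, which no promoter could reach here with at most 9 peaks. In LLC-NR, 33 collagen promoters (76.7%) were bivalent against 48.4% of all promoters. The active state, H3K4me3 or H3K9ac without H3K27me3, was held by 6 against 29.8% of all, the repressive state by 4 against 8.17%, and the state without any mark by 0 against 13.6%. In LLC-R, 32 were bivalent against 53.1% of all, 8 active against 28.3%, 3 repressive against 5.7% and 0 without a mark against 12.9%. A change of state between the lines was seen for 13 collagen promoters against 37.9% of all promoters. Col6a1 and Col6a3, 2 chains of the type VI microfibril, and Col8a1, a short-chain collagen of vessel walls, were active in both lines. The promoters of Col3a1, Col10a1 and Col9a3 went from active to bivalent, and those of Col5a2, Col24a1 and Col16a1 from bivalent to active. Col2a1 and Col4a4 went from repressive to active, Col11a1 and Col9a2 from repressive to bivalent, and Col4a6, Col28a1 and Col9a1 from bivalent to repressive. The H3K27me3 mean that a promoter had to reach rose from 4.56 to 5.46 between the lines. Every promoter that turned active held 5 H3K27me3 peaks in LLC-R, a number that reached only the lower mean. Col24a1 and Col16a1 already held 5 in LLC-NR, so only the mean had moved, and Col5a2 held 6 there. Counting any overlap with the promoter left 2.33% of collagen promoters active in LLC-R, against 18.6% otherwise.

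**Figure D2:**
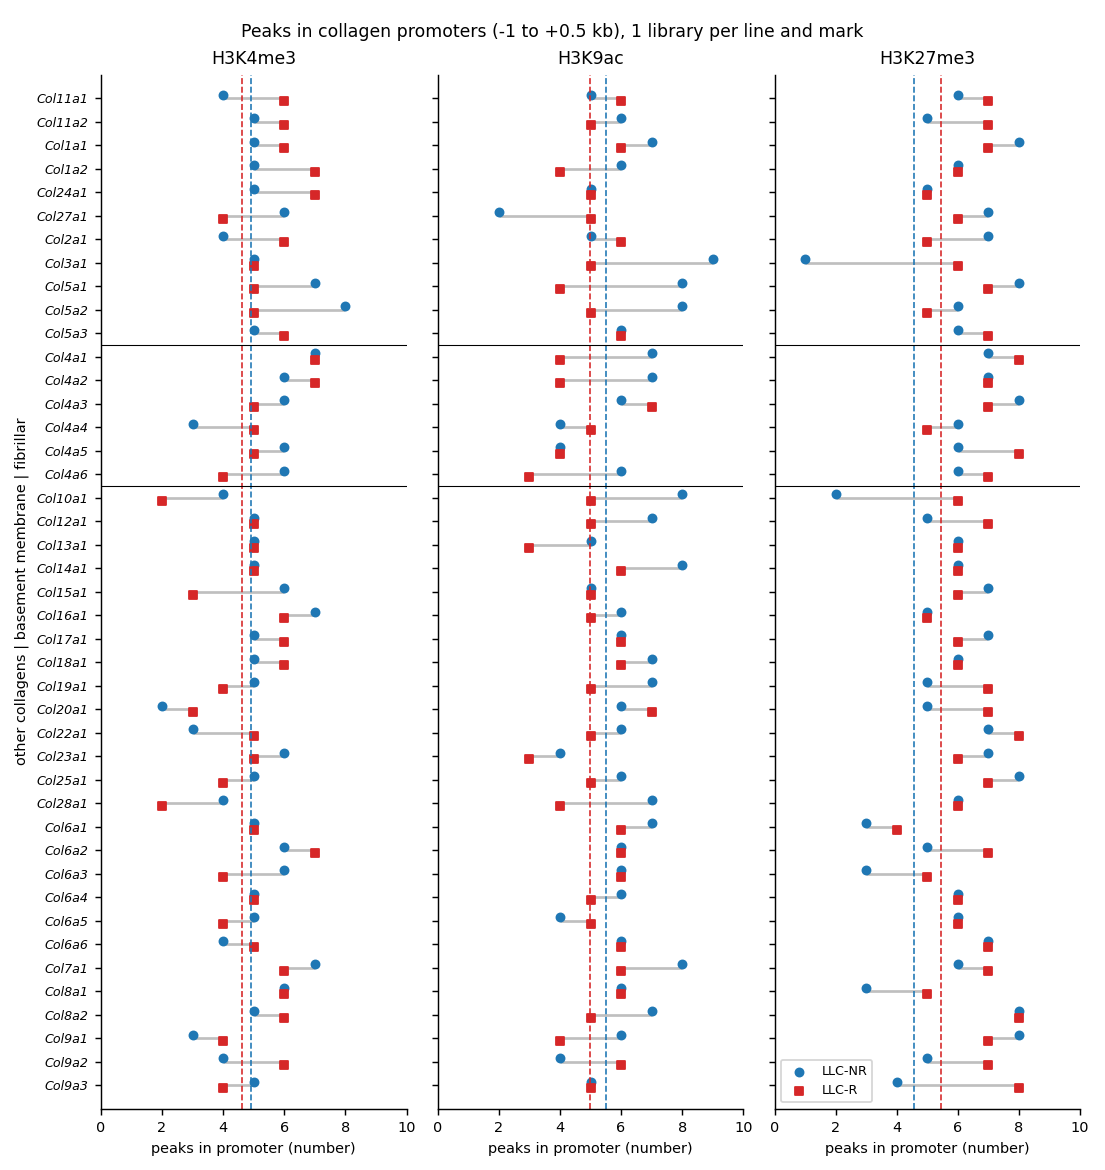
Number of peaks in the promoter (horizontal axis, -1 kb to +0.5 kb around the TSS) for each of the 43 collagen genes (rows, grouped as fibrillar, basement membrane and other) and 3 marks. Blue circles are LLC-NR and red squares LLC-R, with 1 library each and no error bar, and dashed lines are the means of all promoters in each library; Col3a1 and Col10a1 stand out with 1 and 2 H3K27me3 peaks in LLC-NR against 6 in LLC-R.

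Col3a1, which encodes the only chain of type III collagen of skin, vessels and scar tissue, had the largest difference of any collagen promoter. The gene lies at chr1:45368383-45406551 of mm9 on the + strand, and its promoter is an LCP with 9 CpGs. H3K27me3 was at 1 peak in LLC-NR and 6 peaks in LLC-R (log2 ratio of relative levels 1.91), and the ratio with levels divided by reads was 1.16. H3K9ac was at 9 peaks in LLC-NR and 5 peaks in LLC-R (log2 ratio -0.65, and -0.04 with reads). H3K4me3 was at 5 peaks in both. Only 5 collagen promoters had 3 or fewer H3K27me3 peaks in LLC-NR, against 25.3% of all promoters. Of these, Col3a1, Col10a1, Col6a3 and Col8a1 had 5 or 6 in LLC-R and Col6a1 had 4. The H3K27me3 peaks of LLC-R in the Col3a1 promoter were centered at -803, -570, -397, -196, 56 and 353 bp from the TSS, and the single peak of LLC-NR at -808 bp. The LLC-R peak closest upstream of the TSS is shown because it covers CpG-free sequence that held no H3K27me3 peak in LLC-NR. The same stretch was not empty in LLC-NR, which had an H3K36me3 peak at that position and overlapping H3K4me3 and H3K9ac peaks.
Col3a1 H3K27me3 peak of LLC-R (chr1:45368114-45368260, + strand, mm9): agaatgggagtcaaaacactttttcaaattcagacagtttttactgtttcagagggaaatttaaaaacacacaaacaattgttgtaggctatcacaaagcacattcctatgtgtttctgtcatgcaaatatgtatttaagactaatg

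The other fibrillar collagens moved by fewer peaks. Col1a1 and Col1a2 encode the chains of type I collagen, the main protein of bone, skin and tendon. Col1a1 went from 5 peaks in LLC-NR to 6 in LLC-R for H3K4me3, from 7 to 6 for H3K9ac and from 8 to 7 for H3K27me3. Col1a2 went from 5 to 7 for H3K4me3 and from 6 to 4 for H3K9ac, with 6 in both for H3K27me3. Neither promoter was called different in any mark. Col5a1, Col5a2 and Col5a3 encode type V collagen, which nucleates fibers of type I collagen. Col5a1 had 8 H3K9ac peaks in LLC-NR against 4 in LLC-R, a call (log2 ratio -0.78), while its H3K4me3 was at 7 and 5 and its H3K27me3 at 8 and 7. Col5a2 held 8 and 5 peaks of H3K4me3, 8 and 5 of H3K9ac and 6 and 5 of H3K27me3, fewer each time in LLC-R but not called. Col5a3 held 5 and 6 of H3K4me3, 6 and 6 of H3K9ac and 6 and 7 of H3K27me3.

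The cartilage collagens Col2a1 and Col11a1 each went from 4 peaks of H3K4me3 in the sensitive line to 6 in the resistant one, calls with a log2 ratio of 0.62 that were lost with all peaks (0.54) or background windows (0.53) as the scale. Col2a1, the main chain of cartilage, also had fewer H3K27me3 peaks in LLC-R, at 7 and 5 (log2 ratio -0.69), and its H3K9ac was at 5 and 6. H3K27me3 of Col11a1 was at 6 and 7 and its H3K9ac at 5 and 6. Col11a2, the partner chain of Col11a1, had no call, with H3K4me3 at 5 and 6, H3K9ac at 6 and 5 and H3K27me3 at 5 and 7. Col27a1, a fibrillar collagen of cartilage, had 2 H3K9ac peaks in LLC-NR against 5 in LLC-R, a call (log2 ratio 1.26), while H3K4me3 was at 6 and 4 and H3K27me3 at 7 and 6. Col24a1 had no call either, with H3K4me3 at 5 and 7 and both H3K9ac and H3K27me3 at 5 and 5. Among the 11 fibrillar promoters, 7 held more H3K4me3 peaks in LLC-R (63.6%) and 3 held fewer, where 25.6% of all promoters held more and 43.5% held fewer.

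The 6 type IV genes lie in 3 pairs that start back to back. Col4a1 and Col4a2, the chains of nearly all basement membranes, start 21 bp apart on chromosome 8 and their promoters share peaks. Each had 7 H3K9ac peaks in LLC-NR against 4 in LLC-R (log2 ratio -0.60), 1 difference seen through 2 genes. Their H3K4me3 was high in both lines, at 7 and 7 for Col4a1 and 6 and 7 for Col4a2, and so was H3K27me3, at 7 and 8 and at 7 and 7. Col4a3 and Col4a4, which join Col4a5 in the kidney glomerulus, start 72 bp apart on chromosome 1. H3K4me3 of Col4a4 went from 3 to 5 peaks, a call (log2 ratio 0.74), with H3K9ac at 4 and 5 and H3K27me3 at 6 and 5. The TSS shared by most Col4a3 transcripts lies 128383 bp inside the gene, where H3K4me3 was at 6 and 5, H3K9ac at 6 and 7 and H3K27me3 at 8 and 7. At its upstream TSS next to Col4a4, H3K4me3 was at 3 and 5, H3K9ac at 4 and 6 and H3K27me3 at 5 and 6. On the X chromosome Col4a6 had 6 H3K9ac peaks in LLC-NR against 3 in LLC-R, a call (log2 ratio -0.76), with H3K4me3 at 6 and 4 and H3K27me3 at 6 and 7. Its neighbor Col4a5, whose upstream TSS is 1309 bp away, had no call, with H3K4me3 at 6 and 5, H3K9ac at 4 and 4 and H3K27me3 at 6 and 8.

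Of the 26 other collagens, 6 were called at the promoter. Col10a1, the collagen of hypertrophic cartilage, overlaps the gene Nt5dc1, so its peaks cannot be assigned to either gene alone. H3K4me3 was at 4 and 2 peaks (log2 ratio -0.77), H3K27me3 at 2 and 6 (log2 ratio 1.15) and H3K9ac at 8 and 5. Of the 3 chains of type IX collagen, which coats cartilage fibers, Col9a2 had 4 and 6 H3K4me3 peaks (log2 ratio 0.62) and 4 and 6 H3K9ac peaks (0.66), and Col9a3 had 4 and 8 H3K27me3 peaks (0.68). The Col9a3 call was lost at its most upstream TSS, 432 bp away, which had 4 and 5 H3K27me3 peaks (0.06), and 5 is under the mean of 5.46 that the bivalent state asks for in LLC-R. The H3K4me3 call of Col9a2 was lost with all peaks (0.54) or background windows (0.53) as the scale. The third chain, Col9a1, had no call, with H3K4me3 at 3 and 4, H3K9ac at 6 and 4 and H3K27me3 at 8 and 7. Col15a1, a collagen next to basement membranes, had 6 and 3 H3K4me3 peaks (log2 ratio -0.81). Col28a1 had 4 and 2 H3K4me3 peaks (log2 ratio -0.77) and 7 and 4 H3K9ac peaks (-0.60). Col22a1, found at tissue junctions, had 3 and 5 H3K4me3 peaks (log2 ratio 0.74). The lowest H3K4me3 number of LLC-NR belonged to Col20a1, with 2 peaks there and 3 in LLC-R, and the highest to Col5a2.

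Counted over all 43 promoters, calls were few in every direction. H3K4me3 was called higher in LLC-R at 5 collagen promoters, where 8.62% of all promoters were called, and lower at 3, where 7.67% were. H3K9ac was called higher at 2 (background 4.48%) and lower at 6 (background 6.80%), of which the Col4a1 and Col4a2 calls are the same peaks. H3K27me3 was called higher at 3 (background 12.4%) and lower at 1 (background 4.84%). Each call rests on a difference of 2 to 5 peaks between 1 library and another. The balance of higher and lower calls depended on the scaling for all 3 marks. For H3K4me3, division by all peaks or by background windows gave 2 higher and 4 lower (background 7.28% and 10.5%), and division by uniquely mapped reads 9 higher and 3 lower (background 14.7% and 5.61%). With reads, H3K9ac was called higher at 18 and lower at 0 collagen promoters, and H3K27me3 higher at 1 and lower at 31, where 45.5% of all promoters were called higher in H3K9ac and 62.1% lower in H3K27me3. The order of the collagen promoters was little kept between the lines: Spearman's rho across the 43 genes was 0.207 for H3K4me3, 0.0621 for H3K9ac and 0.329 for H3K27me3, against 0.701, 0.518 and 0.561 across all 22367 promoters. The collagen promoters span a narrow range of numbers in each library, and genes are not replicates.

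How often single nucleosome-sized positions were shared between the lines, compared with all promoters, depended on the mark and on the distance allowed. Of the LLC-NR H3K4me3 peaks in collagen promoters, 33.5% (exact 95% interval 27.3% to 40.1%, which covers counting error only) had an LLC-R peak within 20 bp, against 37.5% over all promoters. The share was 33.8% (28.1% to 39.9%) against 40.3% for H3K9ac, 37.1% (31.1% to 43.4%) against 35.3% for H3K27me3 and 34.9% (27.8% to 42.6%) against 33.9% for H3K36me3. For H3K9ac the interval of the collagen promoters ended just under the share of all promoters, and for the other 3 marks it held that share. Peaks in overlapping promoters, such as those of Col4a1 and Col4a2, were counted for each gene, so the intervals are too narrow. Within 10 bp the share was 19.5% (14.5% to 25.3%) against 27.3% for H3K4me3 and 21.2% (16.4% to 26.6%) against 30.8% for H3K9ac, so both intervals ended under the share of all promoters. Within 40 bp the intervals of all 4 marks held it.

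Collagen gene bodies are long, and they stood high in H3K27me3. Bodies were counted from +0.5 kb to the end of the gene, and those of at least 2 kb were kept, which left 18620 genes and all 43 collagens. The median collagen body was 106.8 kb against 20.59 kb for all genes. The median density of H3K27me3 was 3.57 peaks per kb in LLC-NR against 2.71 for all bodies, and 4.03 in LLC-R against 3.80. In LLC-NR 21 of the 43 collagen bodies were in the top 25% of all bodies, and in LLC-R 17, with 15 in both. Among bodies of 15 kb or more, the median percentile of the collagen bodies was 76.4 in LLC-NR against 71.6 in LLC-R. H3K36me3 was not high: 4 collagen bodies in LLC-NR against 6 in LLC-R were in its top 25%, and their median percentile was 41.5 and 41.2.

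The genes with the most H3K27me3 over the body in LLC-NR were Col1a1 and Col4a3. The Col1a1 body held 4.41 H3K27me3 peaks per kb in LLC-NR against 4.60 in LLC-R, percentiles 98.6 and 97.8 of all bodies, beside 2.45 and 3.98 H3K36me3 peaks per kb, percentiles 22.9 and 49.2. Col1a1 overlaps the annotated gene Gm17329. Col1a2, its partner chain, held 3.85 and 4.27 H3K27me3 peaks per kb and 3.28 and 3.99 H3K36me3 peaks per kb. Col15a1 held 4.14 and 4.28, Col6a4 4.11 and 4.16 and Col2a1 3.99 and 4.34 H3K27me3 peaks per kb. At the other end Col10a1 held 2.27 and 3.79, and Col18a1, the source of endostatin, 2.56 and 3.70.

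Few collagen bodies were dense in H3K36me3. In LLC-NR the highest was Col3a1 with 4.22 peaks per kb (percentile 96.1), followed by Col6a3 with 3.98 and Col10a1 with 3.94. In LLC-R these 3 bodies held 4.06, 4.11 and 4.54 peaks per kb, and the percentile of Col3a1 was 56.5. The lowest in LLC-NR were Col27a1 with 2.12, Col4a5 with 2.17 and Col13a1 with 2.17 peaks per kb, which held 3.64, 3.30 and 3.71 in LLC-R. Across the 43 bodies the densities of H3K27me3 and H3K36me3 ran opposite in LLC-NR, with Spearman's rho -0.543, and little so in LLC-R, with rho -0.13. Across all 18620 bodies rho was -0.244 and 0.0889. The points of each line come from 2 libraries, and whether these were made from the same tumors is not given. The spread of the collagen bodies in H3K27me3 was narrower in LLC-R (SD 0.209 peaks per kb) than in LLC-NR (SD 0.523). The LLC-R library had more reads, and the part of depth in this was not tested.

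**Figure D3:**
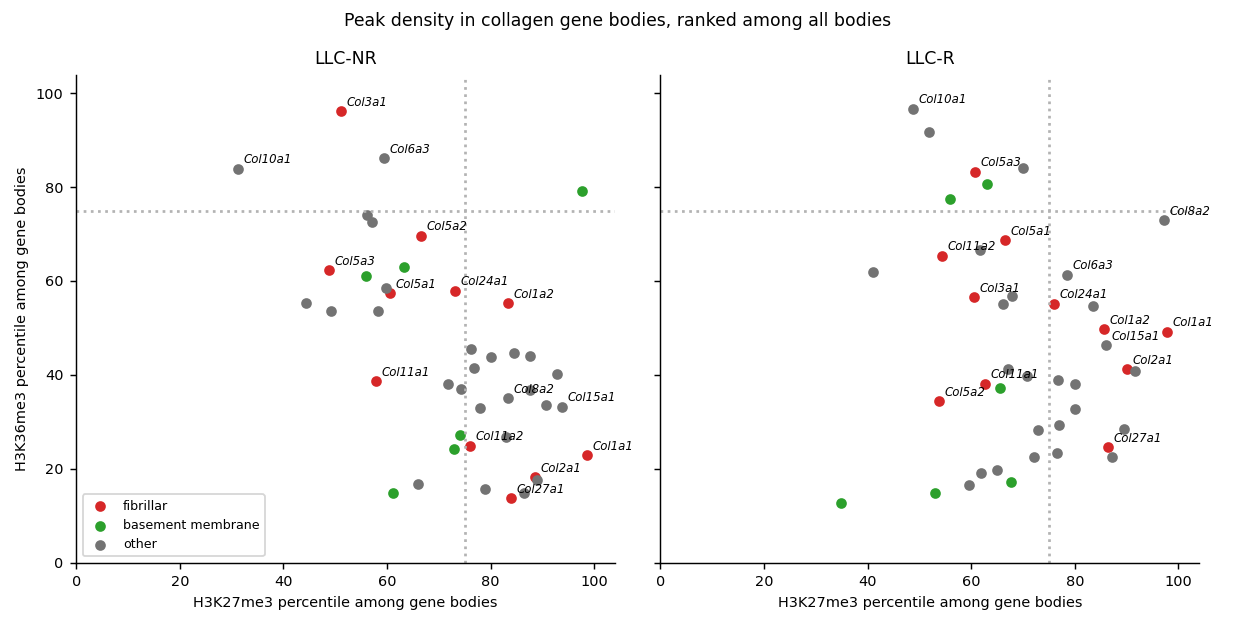
Percentile of each collagen gene body among all 18620 bodies for H3K27me3 peaks per kb (horizontal axis) and H3K36me3 peaks per kb (vertical axis) in LLC-NR (left) and LLC-R (right). Each point is 1 gene, colored by class, and dotted lines mark the top 25%; 21 bodies lie right of the vertical line in LLC-NR against 17 in LLC-R, and Col3a1 drops from percentile 96.1 to 56.5 for H3K36me3.

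Between the lines, H3K36me3 over the body was called higher in LLC-R for 7 collagens, where 12.7% of all bodies were called, and lower for 1, where 1.82% were. The 7 were Col9a3 (2.26 and 4.05 peaks per kb, log2 ratio of relative densities 0.47), Col27a1 (0.41), Col13a1, a transmembrane collagen (0.40), Col2a1 (2.31 and 3.89, 0.38), Col11a2 (2.5 and 4.15, 0.37), Col23a1, a transmembrane collagen (2.21 and 3.62, 0.35), and Col1a1 (0.34). All 7 were in the lowest 25% of bodies in LLC-NR, at percentiles 13.7 to 24.9. Col9a3 overlaps the gene Tcfl5. The 1 lower body was Col3a1, at -0.35, and the next lowest were Col4a3 at -0.30 and Col6a3 at -0.26. Every one of the 7 higher calls turned to a lower value when densities were divided by the uniquely mapped reads of each library instead, a scaling under which the median log2 ratio of all bodies was -0.79.

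H3K27me3 over the body was called higher in LLC-R for 0 collagens, where 18.7% of all bodies were called, and lower for 3, where 8.30% were. The 3 were Col4a3, counted over the 6.25 kb after its common TSS (4.32 and 4.0 peaks per kb, log2 ratio -0.48), Col6a4 (-0.36) and Col15a1 (-0.33). The log2 ratio was under 0 for 32 of 43 collagen bodies, against 46.7% of all bodies, with a median of -0.19 against 0.02. In peaks per kb each of the 43 bodies except Col4a3 still held more in LLC-R, whose library had more reads. The negative ratios thus mean a smaller rise in peaks than that of the average body. The shift was not particular to collagens. Among the lists described below, the median was -0.16 for fibroblast, -0.23 for leukocyte, -0.24 for endothelial and -0.22 for lung epithelial markers. It was -0.08 for collagen receptors and 0.01 for biosynthesis genes. By CpG class it was 0.13 for all HCPs, -0.14 for all ICPs and -0.13 for all LCPs. Counted from its upstream TSS over 135 kb, Col4a3 held 4.06 and 4.11 H3K27me3 peaks per kb (log2 ratio -0.36).

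H3K4me3 over the body was called higher in LLC-R for 5 collagens (background 5.72%), namely Col20a1, Col16a1, Col10a1, Col1a1 and Col27a1, with log2 ratios of 0.32 to 0.41. It was called lower for 2 (background 5.57%), Col3a1 at -0.37 and Col4a3 at -0.64. The Col4a3 call was lost with its upstream TSS, from which the log2 ratio was -0.19. H3K9ac was called for 0 bodies in either direction, where 1.40% of all bodies were called higher and 1.87% lower, and its log2 ratios ran from -0.21 to 0.12.

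The lower H3K4me3 and H3K9ac densities at Col3a1 extended into its surroundings, and H3K27me3 did not follow this pattern. Col3a1 and Col5a2 lie tail to tail on chromosome 1, with 24.6 kb between their ends, and the region from 40 kb upstream of one to 40 kb upstream of the other was counted piece by piece. H3K4me3 was at 3.58 peaks per kb over the Col3a1 body in LLC-NR against 2.68 in LLC-R. It was at 2.93 and 2.15 over the 40 kb upstream of Col3a1, at 2.93 and 2.03 between the genes, at 2.97 and 2.37 over the Col5a2 body and at 2.75 and 2.05 over the 40 kb upstream of Col5a2. H3K4me3 was thus lower in LLC-R over every piece except the Col3a1 promoter, where both lines held 5 peaks.

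H3K9ac was lower in LLC-R over every piece, at 4.20 and 3.32 peaks per kb over the Col3a1 body and 3.83 and 3.10 over the 40 kb upstream of it. The LLC-R library held fewer H3K9ac peaks in general, and the mean over all bodies was 3.79 and 3.46 peaks per kb. On relative levels no collagen body was called for H3K9ac, and the lowest log2 ratio among them was -0.21. H3K27me3 was at 2.73 and 3.93 peaks per kb over the Col3a1 body, 2.85 and 3.73 over the 40 kb upstream, 3.09 and 3.49 between the genes and 3.31 and 3.85 over the Col5a2 body. The LLC-R library held more H3K27me3 peaks in general, and on relative levels the log2 ratio was 0.11 for the Col3a1 body and -0.17 for the Col5a2 body. It was -0.14 for the 1 Mb on either side of Col3a1, where numbers were divided by all peaks of the library. The Col5a2 promoter had 6 and 5 H3K27me3 peaks. H3K27me3 was thus higher on relative levels at the Col3a1 promoter and, below the threshold, over its body, but not in the surroundings.

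H3K36me3 stood out over Col3a1 itself in LLC-NR. It was at 4.22 peaks per kb over the body against 3.05 over the 40 kb upstream and 3.25 between the genes. In LLC-R it was at 4.06 over the body against 3.65 upstream and 3.49 between the genes. The body stood above both sides in either line, and by less in LLC-R. The Col5a2 body held 3.64 and 3.80 H3K36me3 peaks per kb against 2.95 and 3.53 over the 40 kb upstream of it.

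**Figure D4:**
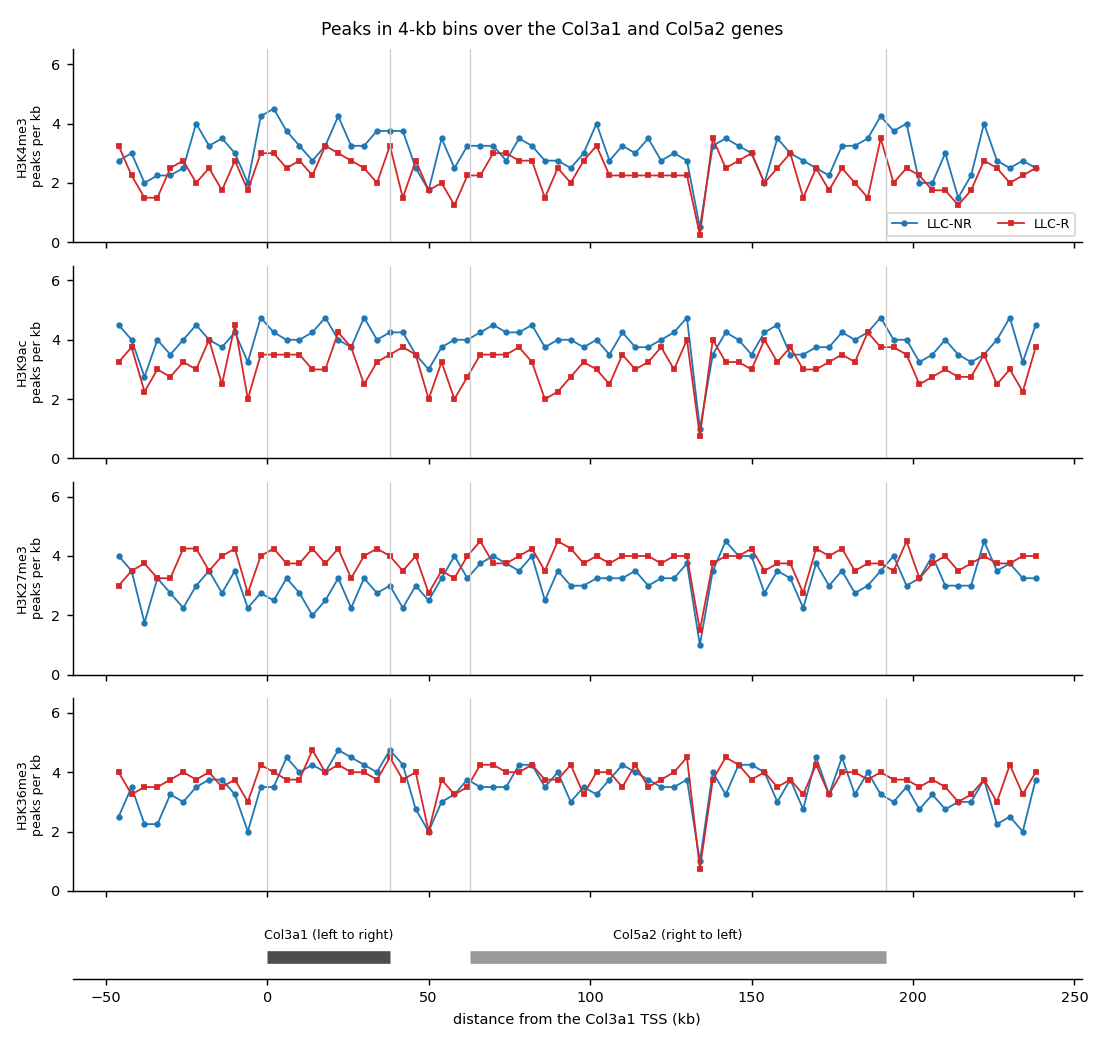
Peaks per kb in 4-kb bins (vertical axes) against the distance from the Col3a1 TSS in kb (horizontal axis) for 4 marks over Col3a1 and Col5a2, with the genes drawn to scale under the plots. Blue circles are LLC-NR and red squares LLC-R, 1 library each. The H3K4me3 and H3K9ac lines of LLC-R run under those of LLC-NR in most bins, but not in all. All lines fall together in 1 bin inside Col5a2.

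Body and surroundings were also set side by side for all collagens. Numbers in the 1 Mb flanks were divided by all peaks of the library, without a pseudocount, and so stand on another scale than the body ratios. Across the 43 genes, the log2 ratio of the body was related to that of the 1 Mb on either side, with Spearman's rho 0.729 for H3K4me3, 0.539 for H3K9ac, 0.453 for H3K27me3 and 0.496 for H3K36me3. It was also related to the G+C content of the body, with rho 0.634 for H3K4me3, 0.377 for H3K9ac, 0.0507 for H3K27me3 and 0.454 for H3K36me3. Neighboring collagens share flanks, and genes are not replicates. On the 1 Mb around Col3a1 the log2 ratio was -0.28 for H3K4me3 and -0.21 for H3K36me3, against -0.37 and -0.35 for the body. After subtraction of the flanks, Col3a1 was at -0.09 for H3K4me3 and -0.14 for H3K36me3, and neither passed the threshold. For Col1a1 the flanks were at 0.02 for H3K4me3 and -0.01 for H3K36me3, against 0.37 and 0.34 for the body. The part of G+C content in these ratios was not tested.

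**Figure D5:**
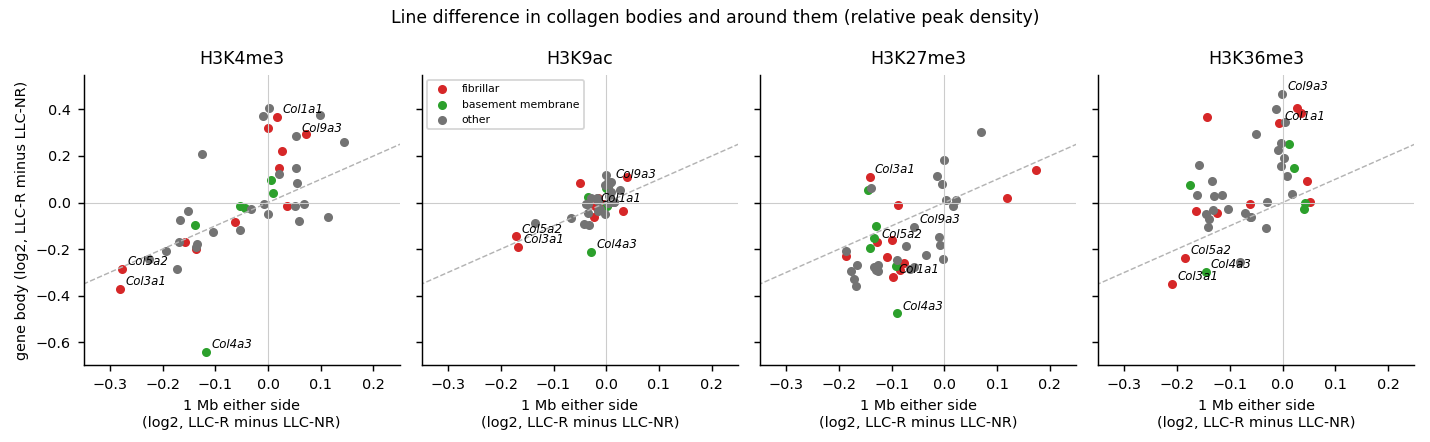
Log2 ratio of LLC-R to LLC-NR in relative peak density over the body of each collagen gene (vertical axis), for 4 marks. The horizontal axis is the log2 ratio over 1 Mb on either side of the gene, with numbers divided by all peaks of the library. Each point is 1 of 43 genes, colored by class, and the dashed line marks equal ratios; Col3a1 and Col5a2 lie at the left of the H3K4me3 and H3K36me3 plots, while Col1a1 lies above the line at flanks near 0.

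Collagen genes are cut into many short exons, since the repeats of the triple helix are often coded by exons of 54 bp or another multiple of 9 bp. The median collagen gene had 47 coding exons, and fibrillar genes 60. Of the internal coding exons, 24.6% were 54 bp long (48.6% in fibrillar genes) against 0.698% in all genes, and 63.8% were a multiple of 9 bp (83.9% in fibrillar genes) against 14.3%. A 54-bp exon is shorter than a peak, so a peak whose midpoint is in such an exon also covers intron.

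Peaks had their midpoints in collagen exons somewhat more often than the exon share of each body gave. For H3K36me3 the ratio of observed to proportional numbers was 1.16 (95% interval 1.10 to 1.23, counting error only) in LLC-NR and 1.15 (1.09 to 1.21) in LLC-R. Over all genes it was 1.07 and 1.05, and over genes with 20 or more exons 1.11 and 1.09. H3K27me3 gave 1.26 (1.19 to 1.33) and 1.16 (1.10 to 1.22), H3K4me3 1.23 (1.16 to 1.31) and 1.15 (1.08 to 1.22), and H3K9ac 1.13 (1.07 to 1.19) and 1.18 (1.12 to 1.24). All 4 marks were above 1 in both lines, marks of silent genes included. Against genes with 20 or more exons, the interval in LLC-NR lay above their ratio for H3K4me3 (1.11), H3K9ac (1.07) and H3K27me3 (1.11) and held it for H3K36me3. In LLC-R it lay above for H3K9ac (1.09), H3K27me3 (1.08) and, narrowly, H3K36me3 (1.09), and held it for H3K4me3 (1.11), so the mark whose interval held the ratio was not the same in the 2 lines. Exons are richer in G+C than introns, and its part in these ratios was not tested.

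The enzymes and chaperones that build collagen carried more H3K36me3 over the body than the collagens. Of 33 symbols listed, 27 were found in the annotation, among them the prolyl and lysyl hydroxylases, the lysyl oxidases, the procollagen proteinases and the chaperone Serpinh1. Their median H3K36me3 percentile was 65.3 in LLC-NR against 71.8 in LLC-R, against 41.5 and 41.2 for the collagens, and their median H3K27me3 percentile 52.5 and 61.1, against 74.3 and 67.8. At the promoter H3K4me3 was called higher for 0 and lower for 1, P4ha3, a subunit of prolyl 4-hydroxylase, with 7 peaks in LLC-NR against 4 in LLC-R (log2 ratio -0.65). These stood against 8.62% and 7.67% of all promoters. H3K9ac was called higher for 0 and lower for 4 of the 27, where 4.48% and 6.80% of all promoters were called, and the 4 were named after their values were seen: Leprel1 had 7 and 2 peaks, and Crtap, Lepre1 and Fkbp10 had 7 and 4 each. Leprel1, Crtap and Lepre1 belong to the prolyl 3-hydroxylation of collagen, and Fkbp10 is a prolyl isomerase of the endoplasmic reticulum. Leprel2 and Ppib of the same step were not called, with 6 and 5 H3K9ac peaks for Leprel2 and 6 and 6 for Ppib. H3K27me3 was called higher for 3 and lower for 1, where 12.4% and 4.84% of all promoters were called.

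Of 8 collagen receptors, the integrin chains that bind collagen, Ddr1, Ddr2, Gp6 and Lair1, H3K4me3 was called higher for 1 and lower for 0, against 8.62% and 7.67% of all promoters. The 1 was Ddr1, the collagen receptor kinase of epithelial cells, with 3 peaks in LLC-NR against 6 in LLC-R (log2 ratio 0.98). H3K27me3 was called higher for 2 and lower for 0, against 12.4% and 4.84% of all promoters, and H3K9ac for 0 in either direction.

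Markers of cell types that a tumor could hold were also high in H3K27me3. The bodies of 9 fibroblast markers had a median H3K27me3 percentile of 82.1 in LLC-NR against 86.8 in LLC-R and a median H3K36me3 percentile of 45.0 and 54.5. The median H3K27me3 percentile was 80.1 and 71.6 for 7 endothelial markers, 78.3 and 76.6 for 6 leukocyte markers, and 77.8 and 78.4 for 8 lung epithelial markers, although the labels call the tissue lung. In H3K4me3, 0 of 10 fibroblast markers were called higher in LLC-R and 1 lower, against 8.62% and 7.67% of all promoters. The 1 was Postn, a matrix protein of activated fibroblasts, with 4 and 1 peaks (log2 ratio -1.53). The median number of H3K4me3 peaks at fibroblast markers was 5 in LLC-NR, with a range of 4 to 7, and 4 in LLC-R, with a range of 1 to 7. It was also 5 and 4 for 7 leukocyte and 7 endothelial markers, and 5 and 5 for 8 lung epithelial markers. H3K4me3 was called higher for 0 and lower for 2 leukocyte markers, for 1 and 1 endothelial markers and for 0 and 0 lung epithelial markers. Numbers of peaks do not give the share of each cell type in a tumor, and its part in the collagen values was not tested.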

How the data were processed

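Libraries came from isografts of LLC-NR and LLC-R, 1 per mark and line. The authors mapped reads with Bowtie 0.12.7 to mm9 with up to 2 mismatches, kept uniquely mapped reads and called peaks per library with GeneTrack, whose settings are not given in the sources used here. The deposited files hold peak positions (start and end in bp) and no count, height or strand. Peak midpoints were counted in promoters (from -1 to +0.5 kb of the TSS shared by most transcripts) and bodies of GENCODE vM1 genes on NCBIM37, the assembly of mm9. Levels were divided by the mean over all genes of the library, with uniquely mapped reads (totals from the study's supplement), all peaks and background windows as alternatives. Numbers in the 1 Mb flanks were divided by all peaks of the library, without a pseudocount. With 1 library per line and mark, no test between lines was run, and each value rests on a number of peaks, not of reads. Percentiles are ranks among all bodies. Correlations carry no p-value. Exact binomial 95% intervals cover counting error only. No sample or table column was left out. Named genes were all fibrillar and type IV members, other members called at the promoter or in body H3K36me3, the 3 highest and 3 lowest in H3K36me3 body ratio and in H3K4me3 relative level, list genes called in H3K4me3, and markers; other members appear as examples after their values were seen. Members and lists were chosen with earlier results of these data known. Counting was checked against direct counts on simulated data. Scripts ran on pandas 2.3.3 and NumPy 2.4.6 under Python 3.11.15, with SciPy 1.17.1 for intervals, pysam 0.24.0 for sequence and Matplotlib 3.10.9 for plots.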

Additional observations from a re-analysis of the deposited data

How the results depend on the processing

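No paired analysis was possible because the labels carry no replicate numbers and each line and mark has 1 library; for the same reason no library could be left out in turn. Counts are of collagen genes called higher or lower in LLC-R. With division by uniquely mapped reads the median log2 ratio of all promoters was 0.237 for H3K4me3, 0.546 for H3K9ac and -0.745 for H3K27me3, against 0.08, -0.04 and 0 otherwise. It gave H3K4me3 9 higher promoters (14.7% of all), H3K9ac 18 higher and 0 lower (45.5% and 1.43%), and H3K27me3 1 higher and 31 lower (2.83% and 62.1%). Over bodies it gave H3K4me3 14 higher and 1 lower (31.4% and 1.73% of all bodies) and H3K9ac 43 higher (95.2%). H3K27me3 had 42 lower bodies (76.5%), and H3K36me3 0 higher and 43 lower (0.967% and 90.8%). Division by all peaks or by background windows gave 2 higher and 4 lower H3K4me3 promoters (7.28% and 10.5% of all). A pseudocount of 0.5 gave H3K4me3 0 and 0 (4.21% and 2.94% of all promoters), H3K9ac 1 and 0 (1.52% and 1.4%), and H3K27me3 0 lower (1.13%). Promoters from -1 kb to +1 kb gave H3K9ac 0 and 1 (2.99% and 3.91% of all) and H3K27me3 0 lower (3.11%). Any overlap gave H3K9ac 1 higher (3.64%), H3K27me3 0 lower (3.75%) and 2.33% active collagen promoters in LLC-R. A difference of 2 or more peaks gave 12 higher promoters for H3K27me3, 16 lower for H3K9ac and 8 lower for H3K4me3. Shares over all promoters were not counted for this last rule.

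Bodies cut to 0.5 to 3 kb gave H3K4me3 8 higher and 11 lower (15.9% and 15.9% of all bodies), H3K9ac 2 and 5 (7.77% and 8.64%), H3K27me3 2 and 16 (24.1% and 21.3%) and H3K36me3 11 and 6 (20.8% and 16.2%). Against 1 Mb on each side, which mixes 2 scales, H3K4me3 had 1 lower (5.52% of all bodies), H3K27me3 1 lower (7.76%) and H3K36me3 0 lower (4.26%). The whole gene gave 1 higher in H3K27me3 (18.2% of all bodies). The most upstream TSS, an alternative chosen after seeing the data, gave 1 lower in H3K4me3 (5.47%). Signs reversed with reads for promoter H3K27me3 of Col9a3 (-0.0893) and body H3K36me3 of Col9a3 (-0.323), Col27a1 (-0.374), Col13a1 (-0.38), Col23a1 (-0.434), Col1a1 (-0.448), Col2a1 (-0.403) and Col11a2 (-0.425), and over 0.5 to 3 kb for H3K4me3 of Col16a1 (-0.0458) and H3K36me3 of Col9a3 (-0.081) and Col11a2 (-0.377).

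Positions shared within 10 bp and 40 bp were 19.5% and 43.9% for H3K4me3 (all promoters 27.3% and 49.2%), 21.2% and 48.8% for H3K9ac (30.8% and 51.1%), 26.7% and 53% for H3K27me3 (24% and 50.1%) and 20.1% and 46.2% for H3K36me3 (23.4% and 47.7%). Alternatives for the gene lists were also chosen after seeing the data and counted calls in either direction. Biosynthesis genes had 2 in H3K4me3 with reads, all peaks, windows, any overlap or the upstream TSS and 0 with the pseudocount or the longer promoter. They had 10, 1 and 1 in H3K9ac with reads, pseudocount and longer promoter, and 18, 1, 2 and 2 in H3K27me3 with these and any overlap. Receptors had 3 in H3K4me3 with reads and 2 with the longer promoter, 5 in H3K9ac with reads, and 4, 0, 0 and 1 in H3K27me3. With reads, 45.5% of all promoters were called higher in H3K9ac and 62.1% lower in H3K27me3. The causes were not tested. Class means stayed within the 95% interval of the main mean, taken across genes, in 66 of 66 recalculations. Those recalculations varied no scaling and used overlapping windows, and genes are not replicates. Exon ratios stayed within their counting interval in 8 of 8, promoter states in 11 of 12 and shared positions in 0 of 8. Promoter calls stayed within 1.5 times in 34 of 54, body calls in 21 of 40 and calls of the gene lists in 21 of 42.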
